A study of Mus musculus with 28 samples.

Results

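The genes described here encode the respiratory chain and the ATP synthase of mitochondria, together with assembly factors that share their symbols, in sorted mouse medullary thymic epithelial cells (mTECs). They were chosen by symbol alone. Mitochondrially encoded members were those starting with mt-Nd, mt-Co, mt-Cytb or mt-Atp, and nuclear members those of the Nduf, Sdh, Uqcr, Cox4 to Cox8 and Atp5 series, with pseudogene symbols in -ps left out and at least 10 counts over the 28 libraries. Of 55011 symbols in the count table, 112 met this rule, 13 of them mitochondrially and 99 nuclear encoded. The nuclear members held 40 genes named for complex I, 4 for complex II, 8 for complex III, 17 for complex IV, 17 for complex V and 13 assembly or accessory factors. The mitochondrial members held 7 subunits of complex I, 1 of complex III, 3 of complex IV and 2 of complex V. Ndufb4c with 5 counts and Cox8c with 9 matched by symbol but fell under the minimum, and 14 symbols ending in -ps, with or without a number, were left out.

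The libraries were bulk RNA-seq of about 1000 sorted cells each, from C57BL/6 thymus, and the study asks what the nuclear receptors HNF4A and HNF4G do for gut and liver genes in mTECs. Wild-type cells were sorted as entero-hepato mTECs (n = 3) and as mTECs outside that gate (n = 3). All other mice carried Foxn1-Cre on 1 allele (+/-), which drives recombination in thymic epithelium, so their controls carried it too. Controls were Hnf4a fl/+ with Hnf4g +/-, and thus had already lost an allele of each gene in the cells where Cre acts. Post-Aire mTEClo came from controls (n = 4), from Hnf4a-removed mice (Hnf4a fl/fl, Hnf4g +/-, n = 3), from Hnf4g-removed mice (Hnf4a fl/+, Hnf4g -/-, n = 3) and from double mutants (Hnf4a fl/fl, Hnf4g -/-, n = 4). Controls (n = 4) and double mutants (n = 4) of these genotypes also gave mTEChi. The labels give no ages and do not tell whether replicate libraries are separate mice, so p-values measure the spread between libraries, which may be technical. Values in bulk cells cannot tell fewer cells of a type from less RNA per cell.

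The chain passes electrons from NADH through complex I, or from succinate through complex II, to coenzyme Q, then through complex III and cytochrome c to complex IV, where oxygen is reduced. Complexes I, III and IV pump protons, and complex V, the ATP synthase, uses their return to make ATP. Complex II is wholly nuclear encoded, while the other complexes combine subunits from the nucleus with subunits that are transcribed and translated inside the mitochondrion. Transcripts of the latter are long and polycistronic and are cut mostly at tRNAs, and most of the products are given short poly(A) tails. mTECs are stromal cells that display proteins of peripheral tissues to developing T cells, and the mature subset mTEChi contains the cells that carry the regulator Aire.

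Total counts were 4330120 to 8342583 per library. The targeted genes were low in mTEClo and mTEChi, at 1.02 to 7.42 CPM for Hnf4a and 3.20 to 22.5 CPM for Hnf4g (CPM, counts scaled to library depth, with TMM factors between libraries), against 31.2 to 67.3 and 124 to 184 CPM in the entero-hepato gate. Counts over a whole gene do not show a deletion within it, so these values do not check the genotype labels. Of 8 mTEC genes examined, Ccl21a was at 0 in every group except the gate outside entero-hepato, and the others, Epcam, Aire and Cd74 among them, were detected in all groups.

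Mitochondrially encoded genes differed by orders of magnitude in how many reads the table gave them, and the genes with few reads were mostly those whose sequence is repeated in the nuclear genome. mt-Co1, the catalytic subunit of complex IV, had 853131 counts over the 28 libraries, mt-Cytb, cytochrome b of complex III, had 773278, and mt-Nd1 of complex I had 750840. mt-Co2 had 1356, mt-Atp6 1464, mt-Co3 663, mt-Nd3 447 and mt-Nd4l 82 counts. Every stretch of 38 bases, the length of a read end, was looked up in the other annotated transcripts (GENCODE M21, GRCm38, both strands). It recurred elsewhere for 100% of the windows of mt-Co2, 99.9% of mt-Co3, 99.5% of mt-Atp6, 98.8% of mt-Nd4l and 98.1% of mt-Nd3. For mt-Nd1 it was 0%, for mt-Nd6 1.04%, for mt-Cytb 1.99%, for mt-Nd2 10.5% and for mt-Nd5 12.98%. mt-Co1 and mt-Nd4 lay between, at 58.4% and 62.6%, and kept 853131 and 146682 counts.

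To show what is repeated, 60 bases of 3 genes are given, in which capitals mark bases inside a window that another transcript also holds and lower case marks bases that none does. mt-Nd1 (GRCm38 chrM:2751-2810, first bases of the gene) has none, mt-Co1 (chrM:5351-5410) crosses the edge of a stretch shared with the annotated pseudogene Gm13340, and mt-Co2 (chrM:7013-7072, first bases) is shared throughout with Gm28661 and in part with Gm13341.
mt-Nd1: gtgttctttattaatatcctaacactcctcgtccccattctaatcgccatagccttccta
mt-Co1: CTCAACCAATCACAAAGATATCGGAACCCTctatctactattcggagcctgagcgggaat
mt-Co2: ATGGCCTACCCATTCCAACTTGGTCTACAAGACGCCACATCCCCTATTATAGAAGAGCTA
In the stretches printed, the shared part of mt-Co1 is 30 bases and that of mt-Co2 all 60.

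The copies of mt-Co2, mt-Atp6, mt-Co3, mt-Nd3 and mt-Nd4 lie side by side on chromosome 1, minus strand, as the annotated unprocessed pseudogenes Gm28661 (24614885 to 24615565), Gm10925 (24613974 to 24614651), Gm28437 (24613189 to 24613971), Gm28438 (24612775 to 24613119) and Gm28439 (24611535 to 24612410). They had counts of their own, 1061 for Gm28661, 1828 for Gm10925, 779 for Gm28437, 57 for Gm28438 and 254 for Gm28439. mt-Atp8 was the exception among the low genes, with 119 counts although 3.59% of its windows recurred in another transcript. It lies between mt-Co2 and mt-Atp6 on the mitochondrial genome, in a span of 1595 bases, and their copies on chromosome 1 span 1592 bases with no transcript annotated where the copy of mt-Atp8 would be. The sources used here do not say how the authors' counting treated reads with several positions, and its part in these levels was not tested. mt-Nd5 and mt-Nd6 overlap on opposite strands, and the kit does not mark strand, so their reads cannot be told apart in the overlap.

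**Figure D1:**
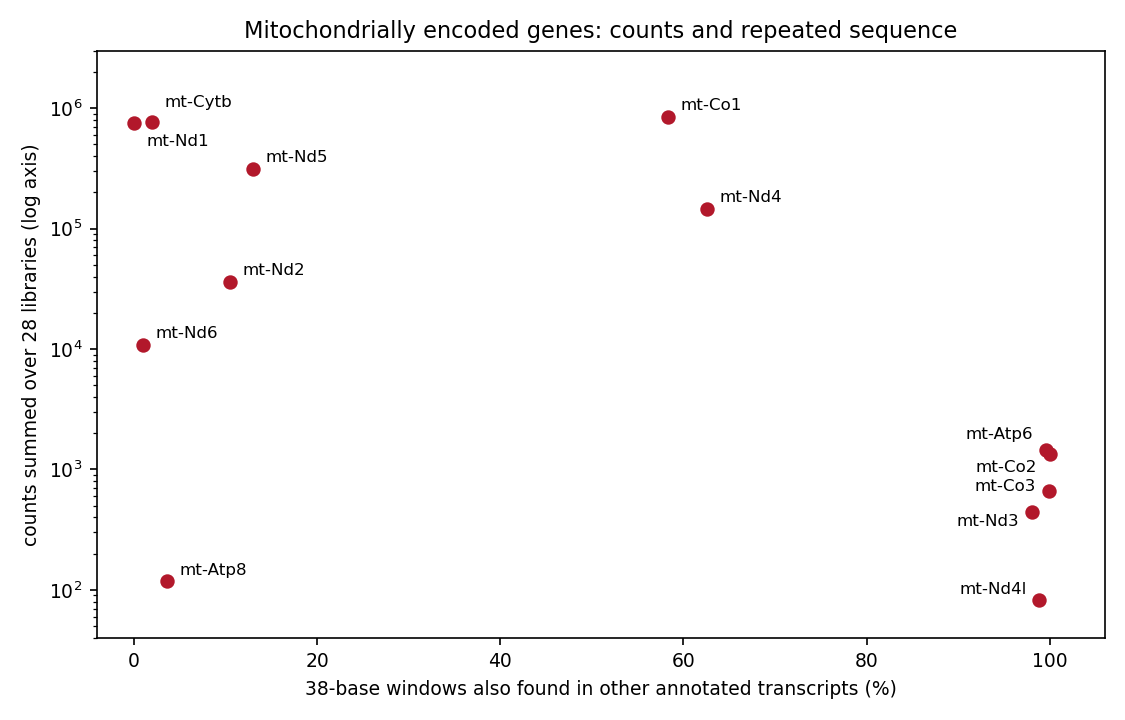
Each point is a mitochondrially encoded gene. The horizontal axis gives the percentage of its 38-base windows that occur in another annotated transcript, and the vertical axis (log scale) its counts summed over 28 libraries. The 5 genes above 98% have 82 to 1464 counts, and mt-Atp8 is low at 3.59%.

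Relative to length, the mitochondrial members spanned a wide range. Levels per kilobase, averaged over the means of the 8 groups, were 4338 CPM per kb for mt-Nd1, 3639 for mt-Cytb, 3011 for mt-Co1, 986 for mt-Nd5, 588 for mt-Nd4, 196 for mt-Nd2 and 117 for mt-Nd6, while the 5 genes with repeated sequence lay between 1.41 and 11.3 and mt-Atp8 at 2.91. Nuclear members ran from 0.277 to 822 CPM per kb, and none reached the levels of mt-Nd1, mt-Cytb, mt-Co1 or mt-Nd5. Their medians were 117 CPM per kb in complex I, 155 in complex II, 271 in complex III, 165 in complex IV, 214 in complex V and 17.2 among assembly factors. The highest nuclear members were Cox4i1 at 822 CPM per kb, a structural subunit of complex IV, and Atp5b at 773, the catalytic beta subunit of the ATP synthase. In complex I the highest was Ndufa4 at 599, which was named for complex I and has since been found in complex IV, and in complex III Uqcrh, the hinge protein beside cytochrome c1, at 467. Sdha, the flavoprotein of succinate dehydrogenase, was highest in complex II at 231 CPM per kb, and Cox7a2l, a factor of supercomplex assembly, among the accessory factors at 127. The lowest were Ndufs6b at 0.277 and Cox7b2 at 0.586, both close to absence, Sdhaf3 at 1.39, Atp5g1 at 17.0, Sdhc at 22.8 and Uqcrq at 102. These levels rest on the length of 1 annotated transcript per gene, the longest where several ranked equally, and so do the ranks. By CPM alone Atp5l was below Atp5g1 in complex V, with group means of 7.27 to 13.4 against 61.4 to 92.8 CPM. The levels also carry a 3' bias of unknown size, since the cDNA was primed at poly(A).

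Subunit isoforms known from lung, muscle, heart or testis stayed near the floor in every group. Cox4i2, the oxygen-responsive partner of Cox4i1, ranged from 0 to 9.68 CPM over 28 libraries (median 2.51), against 504.5 to 848 CPM for Cox4i1. The highest library was at 3.50 CPM for the muscle isoform Cox6a2, at 9.07 for the testis isoform Cox6b2, at 5.39 for the muscle isoform Cox7a1, at 1.38 for the testis isoform Cox7b2, at 7.75 for the muscle isoform Cox8b and at 3.53 for Ndufa4l2. The lowest library of the common forms was at 206 CPM for Cox6a1, 229 for Cox6b1, 184 for Cox7a2, 114 for Cox7b and 279 for Cox8a, so none of these pairs overlapped.

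The share of all counts that fell on mitochondrial members was lowest in the entero-hepato gate. It was 0.997%, 0.803% and 0.777% in the 3 entero-hepato libraries and 1.88%, 1.52% and 1.36% in the 3 libraries outside the gate, with no overlap. In mTEClo the share was 1.64% ± 0.0251 (SD, n = 4) in controls, 1.84% ± 0.287 (n = 3) without Hnf4a, 1.63% ± 0.122 (n = 3) without Hnf4g and 1.63% ± 0.114 (n = 4) in double mutants. In mTEChi it was 1.67% ± 0.270 (n = 4) in controls and 1.86% ± 0.135 (n = 4) in double mutants, so all 22 libraries of these groups lay between 1.43% and 2.13%, above the entero-hepato gate. The wild-type gates and the Foxn1-Cre groups also differ in genotype and sort, so subset, genotype and sort cannot be told apart in levels set across them.

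Nuclear members followed another order. Their summed share was 1.33% to 1.44% in the entero-hepato gate and 1.29% to 1.31% outside it, lower than the 1.6% to 1.91% of the 14 mTEClo libraries. In mTEChi it was 1.52% ± 0.0604 in controls and 1.67% ± 0.110 in double mutants (SD, n = 4 each). These groups only just did not overlap, with the highest control at 1.560% and the lowest double mutant at 1.566%. The ratio of mitochondrial to nuclear counts was 0.750, 0.569 and 0.540 in the entero-hepato gate against 1.46, 1.17 and 1.04 outside it, and 0.818 to 1.32 in the other 22 libraries. Without the mitochondrial members that share over 50% of their windows, the ratio was 0.389 to 0.534 in the gate and 0.670 to 0.971 outside it, so the gates stayed apart.

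**Figure D2:**
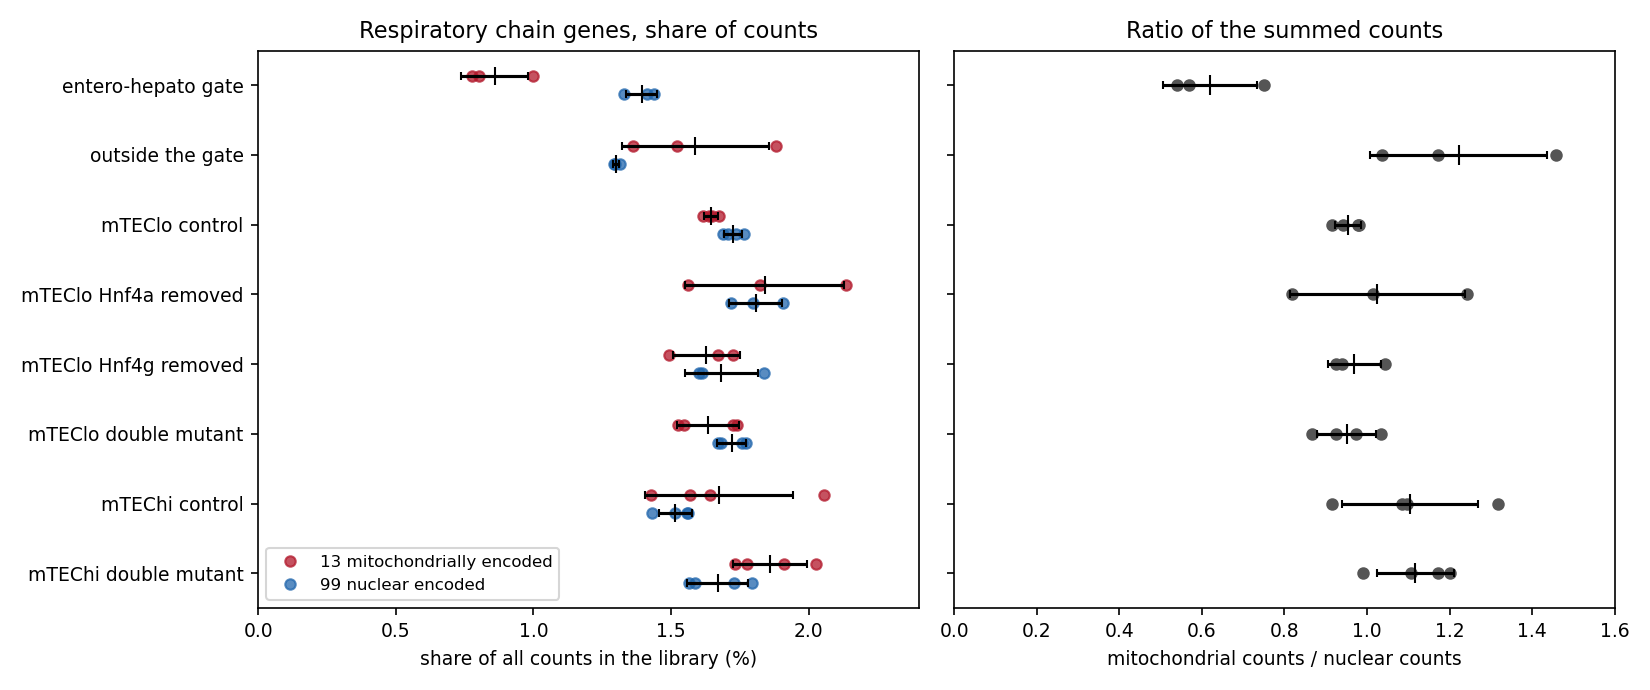
Points are libraries, vertical ticks are group means and bars are SD (n = 3 or 4). Left, percentage of a library's counts on the 13 mitochondrially encoded and the 99 nuclear encoded genes. Right, the ratio of the summed counts, which is 0.540 to 0.750 in the entero-hepato gate and at least 0.818 in every other library.

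In the wild-type gates, nuclear subunits of the chain were higher in entero-hepato cells while the mitochondrial genes were lower or did not pass the test. Of 91 nuclear members tested, 54 were called higher and 1 lower (edgeR quasi-likelihood test, adjusted p under 0.05 over 16811 genes), and the median log2 fold change was 0.38. Of 10 mitochondrial members tested, 0 were called higher and 3 lower, with a median of -0.39. Over all genes tested, 22.7% were called higher and 21.8% lower, 44.5% in either direction, and the median was -0.05. The share of nuclear members called higher was thus 59.3%, above that of all genes.

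By complex, the medians were highest in complexes IV and III. All 8 nuclear members of complex III were called higher (median log2 fold change 0.58), 10 of 12 tested in complex IV (0.72), 14 of 17 in complex V (0.56), 3 of 4 in complex II (0.51) and 19 of 37 in complex I (0.31). Among the 13 assembly and accessory factors 0 were called higher and 1 lower, with a median of -0.19. These complexes were compared by counts and medians only.

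Uqcrfs1, the Rieske iron-sulfur protein of complex III (chromosome 13, 30540308 to 30545362), was at 286, 311 and 312 CPM in the entero-hepato libraries and at 127, 159 and 154 CPM outside. The groups did not overlap, and the log2 fold change of 1.04 (SE 0.11, adjusted p = 0.000116, edgeR) was the largest of any member tested here. Complex IV followed with Cox5a, a subunit on the matrix side, at 195, 204 and 201 against 107, 102 and 112 CPM (log2 fold change 0.89, SE 0.09, adjusted p = 8.1e-05, edgeR).

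Cox8a, the ubiquitous form of a small membrane subunit, was at 517, 532 and 554 against 290.0, 280 and 294 CPM, a log2 fold change of 0.88 (SE 0.08). Cox6b1, which faces the intermembrane space, rose by 0.89 (SE 0.10) from 235 ± 6.01 to 439 ± 38.0 CPM (SD, n = 3 each). The other members of complex IV with the smallest p-values were Cox6a1 (log2 fold change 0.82), Cox5b (0.81), Cox7a2 (0.76) and Cox4i1 (0.64). These are the subunits that surround the catalytic core formed by mt-Co1, mt-Co2 and mt-Co3.

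In the ATP synthase the smallest p-values belonged to Atp5d, the delta subunit of the central stalk (log2 fold change 0.72, SE 0.08), and Atp5pb, subunit b of the outer stalk (0.63, SE 0.08). Atp5b and Atp5a1, the beta and alpha subunits of its catalytic head, were called higher by 0.29 and 0.23, but they stood at -0.08 and -0.14 on plain totals (adjusted p = 0.471 and 0.173, edgeR). Neither was called on upper-quartile scaling (0.13 and 0.07), and Atp5a1 lost its call in 9 of 12 alternatives. Sdhb, the iron-sulfur subunit of complex II, was at 274, 259 and 271 against 165, 170.0 and 171 CPM (0.65, SE 0.08). Sdha, its flavoprotein, was at 515, 417 and 480 against 323, 405 and 348 CPM (0.38, SE 0.11, adjusted p = 0.0262, edgeR), a call that was lost in 7 of 12 alternatives, among them upper-quartile scaling (adjusted p = 0.142), plain totals (0.959) and the replicate block (0.0523). Uqcrh of complex III rose by 0.71 (SE 0.09). In complex I the largest change, chosen after its values were seen, was that of Ndufa6, an accessory subunit, at 0.76 (SE 0.11). Ndufa4 was called at 0.25 (SE 0.08), a call lost in 9 of 12 alternatives. Its value was -0.12 on plain totals (adjusted p = 0.308, edgeR) and 0.09 on upper-quartile scaling (0.403), and the replicate block gave an adjusted p of 0.0658. The only nuclear member called lower was Ndufaf5, which modifies Ndufs7 during complex I assembly, at 7.04 ± 1.42 against 13.8 ± 1.29 CPM (SD, n = 3 each), and its log2 fold change of -0.98 (SE 0.29) had an adjusted p of 0.0228 by edgeR. It lost the call in 5 of 12 alternatives, with an adjusted p of up to 0.0794.

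mt-Co1 was at 2987, 2178 and 2121 CPM in the entero-hepato libraries against 5146, 4189 and 3929 outside, with no overlap (log2 fold change -0.88, SE 0.15, adjusted p = 0.00138, edgeR). mt-Cytb was at 2936, 2366 and 2410 against 4044, 3242 and 2768 CPM, so that the first entero-hepato library lay above the third library outside (-0.40, SE 0.14, adjusted p = 0.0467, edgeR). mt-Nd5 likewise overlapped, at 1953, 1415 and 1494 against 2686, 2139 and 1924 CPM (-0.49, SE 0.15, adjusted p = 0.027, edgeR). Without entero-hepato replicate 2 or 3, or without replicate 1 or 2 outside the gate, the calls of mt-Cytb and mt-Nd5 were lost and 1 mitochondrial member was called, and with RLE size factors mt-Cytb was not called. mt-Co1 kept its call under all 12 alternatives.

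The mitochondrial members that did not pass were mt-Nd1 (log2 fold change -0.39, SE 0.17, adjusted p = 0.0914, edgeR), mt-Nd4 (-0.31, SE 0.15), mt-Nd6 (-0.12, SE 0.21) and mt-Nd2 (-0.09, SE 0.18), and, at a few CPM, mt-Co2 (-0.69, SE 0.57), mt-Nd3 (-0.52, SE 0.53) and mt-Atp6 (-0.32, SE 0.45). mt-Co3, mt-Nd4l and mt-Atp8 had too few counts to be tested. Thus mt-Co1 and the nuclear subunits that assemble with it in complex IV, all from the same libraries, differed between the gates in opposite directions.

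The size of these changes depends on how the gates are brought to a common scale. TMM gave a median of -0.05 over all genes, upper-quartile scaling -0.20 and plain library totals -0.41. On plain totals the median of the nuclear members was 0.01, with 21 called higher and 8 lower, and that of complex I -0.05, a change of sign, while on upper-quartile scaling it was 0.22, with 39 higher and 5 lower. A change of scaling shifts the log2 fold changes of all genes by nearly the same amount. Values relative to the median of all genes therefore stay nearly fixed by construction and are no check on the scaling. On that measure, nuclear members were at 0.42 by TMM, plain totals and upper-quartile scaling and at 0.43 by RLE. Mitochondrial members were at -0.34 or -0.35 by all 4. Complex IV was at 0.77 above the median of all genes under each of these scalings, complex III at 0.62, complex V at 0.61, complex II at 0.56 and complex I at 0.36. Uqcrfs1 passed as higher and mt-Co1 as lower under each of them.

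**Figure D3:**
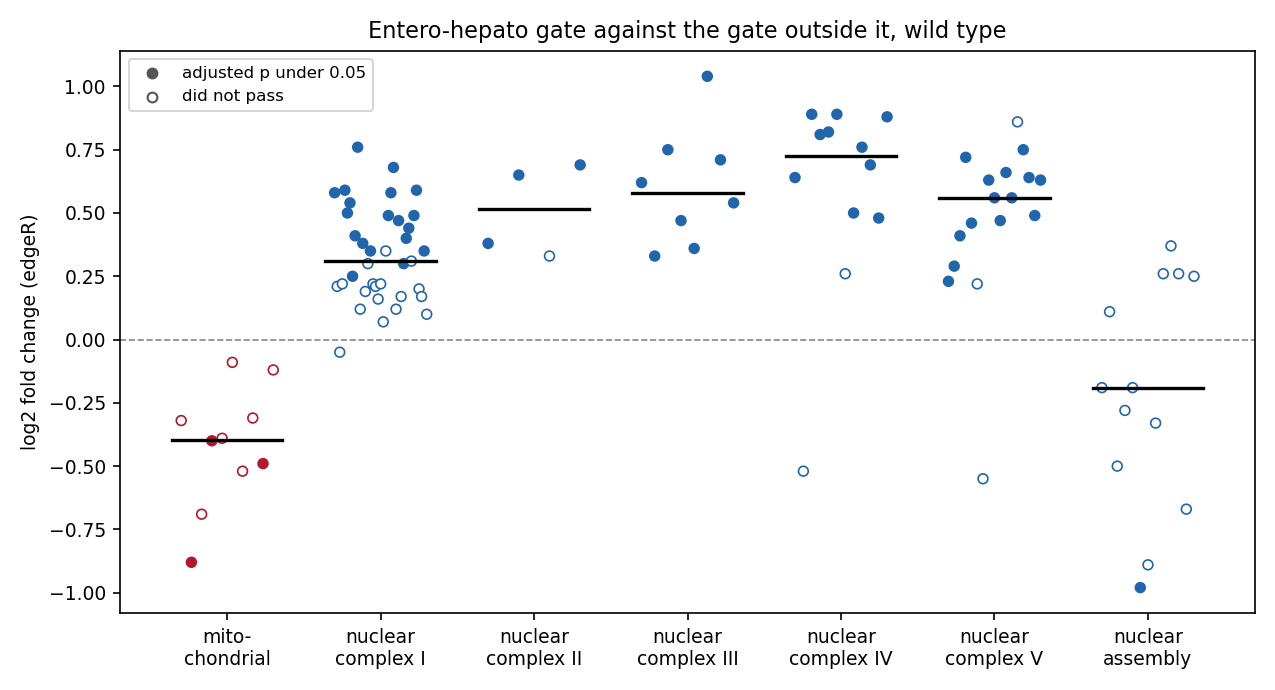
Each point is a member tested between the wild-type gates, with its log2 fold change (entero-hepato over outside, n = 3 libraries each) on the vertical axis. Filled points passed at adjusted p under 0.05, and black lines are medians. Subunits of complexes III, IV and V lie mostly above 0 with medians of 0.58, 0.72 and 0.56, and mitochondrial members below it with a median of -0.39, on TMM scaling.

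Genes of mitochondrial metabolism and of glycolysis were called in both directions, beside 22.7% of all genes called higher and 21.8% called lower. Of the 16 genes of the tricarboxylic acid cycle, 8 were called higher and 3 lower (median log2 fold change 0.23), among them Suclg1 at 1.21 (SE 0.09), a subunit of succinyl-CoA ligase, while Idh3a was lower at -0.74 (SE 0.12). Glycolysis had 7 of 14 higher and 1 lower (0.34), with Ldha, a lactate dehydrogenase subunit, at 1.26 (SE 0.10) and Pfkl, a phosphofructokinase subunit, at -1.11 (SE 0.16). Among cytochromes c and c1 and enzymes of coenzyme Q synthesis 4 of 13 were higher and 1 lower (0.25), and Cycs, the cytochrome c that carries electrons from complex III to complex IV, rose by 1.15 (SE 0.13). Assembly factors of the chain whose symbols lie outside the rule had 9 of 27 higher and 2 lower (0.22), Coa3 of complex IV at 0.90 (SE 0.10) and Bcs1l, which inserts the Rieske protein, at -0.90 (SE 0.25).

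Of 25 genes that maintain and express mitochondrial DNA, 1 was called higher and 8 lower (median log2 fold change -0.40). Over all genes, 22.7% were called higher and 21.8% lower, 44.5% in either direction. Ssbp1, the single-strand binding protein of mitochondrial DNA, was at 39.5 ± 2.75 against 66.7 ± 8.67 CPM (SD, n = 3 each, log2 fold change -0.77, SE 0.14), and Pnpt1, a nuclease that degrades mitochondrial RNA, at 22.9 ± 2.18 against 41.5 ± 4.18 CPM (-0.87, SE 0.16). Proteins of the mitochondrial ribosome had 6 of 77 higher and 11 lower (-0.10). Of 12 regulators of mitochondrial biogenesis, 5 were higher and 2 lower, among them the orphan receptor Esrrg at 98.5 ± 1.26 against 31.9 ± 3.46 CPM (1.61, SE 0.12) and the coactivators Ppargc1b (1.71, SE 0.19) and Pprc1 (-1.69, SE 0.29). Mitochondrial ribosomal RNAs were not analysed here.

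Several features moved with the gates, where 22.7% of all genes were called higher and 21.8% lower. All 10 proliferation genes were lower in the entero-hepato gate (summed level 44.0 to 63.4 against 698 to 844 CPM), 9 of 10 tuft cell genes were lower (183 to 395 against 2022 to 3004 CPM) and 75 of 80 cytosolic ribosomal protein genes were lower with 1 higher (median log2 fold change -0.92). Higher were 9 of 10 enterocyte genes (9205 to 15053 against 213 to 292 CPM), as were 5 of 5 erythroid genes tested (173 to 253 against 16.8 to 27.3 CPM) and 5 of 10 myeloid genes (1191 to 1563 against 450.0 to 648 CPM), and no marker of these lists was at 0. Of the 10 muscle genes 2 were higher and 2 lower (215 to 251 against 365 to 559 CPM). Dissociation stress genes had 2 of 12 higher and 6 lower (2650 to 2777 against 2872 to 3260.1 CPM). Total counts were 5935616 to 6897484 in the entero-hepato libraries and 4330120 to 4647944 outside, with 28159 to 28371 against 29186 to 30284 genes detected. The share of counts on 1 predicted gene, Gm10800, was 0.789% to 1.26% against 1.73% to 3.21%. None of these ranges overlapped between the gates, and their part in the results on chain genes was not tested.

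Promoters of nuclear members often held motifs of factors known to act on respiratory genes. RefSeq promoter sequence (GRCm38.p6, 250 bases before to 50 after a start) was found for 80 of the 99 nuclear members. The motif of NRF1 (GCGCA, any base, GCGC, on both strands, as for the others) was present in 26.2% of them against 5.19% of 27025 genes, that of GABPA (CCGGAAG) in 27.5% against 9.93%, and that of YY1 (AAGATGGC) in 13.8% against 3.19%. No matches of different motifs overlapped in a member. In the gate comparison, the subunits tested with an NRF1 match had a median log2 fold change of 0.47 (17 genes), those with a GABPA match 0.56 (17), those with a YY1 match 0.52 (10) and those with none of the 3 motifs 0.30 (27), given as a description. A match is a string of letters and was not tested for binding.

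The 250 bases before the RefSeq start are printed for the member with the largest change between the gates, Uqcrfs1, and for the lower and the higher member with the smallest p between control mTEChi and mTEClo, Sdha and Ndufc2. Capitals mark matches to the motif of NRF1. The 3 matches in Sdha (chr13:74350241-74350490, minus strand) begin 98, 55 and 10 bases before the start. Uqcrfs1 (chr13:30545317-30545566, minus strand) and Ndufc2 (chr7:97399753-97400002, plus strand) hold no match to the 3 motifs in these windows.
Sdha: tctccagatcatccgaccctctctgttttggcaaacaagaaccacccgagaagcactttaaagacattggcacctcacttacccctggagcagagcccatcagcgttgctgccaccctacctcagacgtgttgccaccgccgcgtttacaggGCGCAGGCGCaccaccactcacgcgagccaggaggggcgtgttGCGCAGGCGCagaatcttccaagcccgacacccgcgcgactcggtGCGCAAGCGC
Uqcrfs1: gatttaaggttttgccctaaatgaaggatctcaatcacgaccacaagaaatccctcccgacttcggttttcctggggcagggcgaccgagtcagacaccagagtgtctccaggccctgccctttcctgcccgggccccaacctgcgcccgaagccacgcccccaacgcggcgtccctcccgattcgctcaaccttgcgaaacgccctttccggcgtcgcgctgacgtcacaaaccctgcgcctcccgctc
Ndufc2: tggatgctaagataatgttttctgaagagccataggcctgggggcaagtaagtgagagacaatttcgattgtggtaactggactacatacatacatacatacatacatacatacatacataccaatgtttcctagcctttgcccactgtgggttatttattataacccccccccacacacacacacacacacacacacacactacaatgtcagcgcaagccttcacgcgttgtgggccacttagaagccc

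Between the mature subsets of control mice, more nuclear members were lower in mTEChi than were higher. Of 95 nuclear members tested, 2 were called higher and 31 lower, with a median log2 fold change of -0.21. Of 20095 genes tested, 22.4% were called higher and 20.5% lower (42.9% in either direction), and their median was 0.04. Complex I had 14 of 38 lower, complex IV 6 of 15, complex V 6 of 17, complex III 2 of 8, complex II 1 of 4 and the assembly factors 2 of 13. In complexes II and III the medians were -0.08 and -0.05, and the shares called lower, 25.0% each, were near that of all genes. Of 11 mitochondrial members 0 were higher and 1 was lower, with a median of -0.10. On upper-quartile scaling, which put the median of all genes at 0.14, 4 nuclear members were higher and 18 lower, and 1 mitochondrial member was called in each direction. These counts have no share of all genes under the same scaling beside them.

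Sdha had the smallest p of any member (chromosome 13, 74322254 to 74350280). It was at 421, 432, 418 and 395 CPM in control mTEChi and at 910.3, 788, 794 and 876 CPM in control mTEClo, with no overlap (log2 fold change -1.01, SE 0.08, adjusted p = 1.13e-08, edgeR). Sdhb, Sdhc and Sdhd, the partners of Sdha in complex II, did not pass, and the highest value among them was 0.03.

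Complex I members with the smallest p-values were Ndufa6 (log2 fold change -0.64, SE 0.09), Ndufv3 (-0.57, SE 0.08), Ndufb9 (-0.64, SE 0.10) and Ndufs7 (-0.58, SE 0.10), the last an iron-sulfur subunit on the path to coenzyme Q. Also lower were Cox6c (-0.55, SE 0.09) and Cox8a (-0.53, SE 0.09) of complex IV, Uqcr10 (-0.55, SE 0.09) and Uqcrh (-0.45, SE 0.10) of complex III, Atp5mpl of the ATP synthase (-0.42, SE 0.08), and the assembly factors Ndufaf3 (-0.60, SE 0.13) and Sdhaf4 (-0.59, SE 0.13). Sdhaf4 binds the flavinated form of Sdha. Ndufaf3 shares exon sequence with Impdh2 on the other strand, so that reads of the pair cannot be told apart there. The same limit holds for Cox6c with Vps13b. Among members named for the gates it holds for Atp5d, Atp5pb, Cox4i1 and Cox5a, and the list is not complete.

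The opposite direction was taken by 2 members. Ndufc2, an accessory membrane subunit of complex I (chromosome 7, 97400003 to 97407802), was at 240, 242, 222 and 222 CPM in control mTEChi and at 143, 154, 172 and 187 in control mTEClo, with no overlap (log2 fold change 0.50, SE 0.09, adjusted p = 0.000295, edgeR). Cox4i2 was at 3.67, 9.68, 5.67 and 7.19 against 0.133, 0.303, 2.81 and 2.73 CPM (2.13, SE 0.83, adjusted p = 0.047, edgeR). That call was lost in 11 of 23 alternatives, 1 of them the replicate block, with an adjusted p of up to 0.113. The mitochondrial member called lower was mt-Nd6, at 53.6, 56.6, 43.2 and 38.4 against 67.8, 65.9, 66.1 and 61.5 CPM (-0.44, SE 0.13, adjusted p = 0.00891, edgeR). It is encoded on the strand opposite to the other mitochondrial members and overlaps mt-Nd5, which did not pass. Since the kit does not mark strand, reads of any transcript from the other strand cannot be told apart from those of mt-Nd6.

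The same contrast in double mutants, from other libraries in the same fit, gave 9 nuclear members higher and 17 lower of 95, with a median of -0.08, and 0 of 11 mitochondrial members called (median 0.18). Of all genes, 27.7% were called higher and 23.1% lower (50.8% in either direction), with a median of 0.06. All 17 called lower were also among the 31 of the controls, 100% of the former and 54.8% of the latter, and Ndufc2 and Cox4i2 were called higher in both. The same overlap was not counted over all genes, so it cannot be read as particular to these members. On upper-quartile scaling 25 nuclear members were higher and 9 lower and their median was 0.07, so the balance of directions rests on the scaling. The share of all genes called under that scaling is not given here. Relative to the median of all genes, nuclear members stood at -0.15 under TMM, RLE, plain totals and upper-quartile scaling. A change of scaling leaves this value nearly fixed by construction, so it is no check.

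Sdha was at 440.5, 401, 381 and 382 CPM in double-mutant mTEChi and at 1069, 1068, 1058 and 1003 CPM in double-mutant mTEClo (log2 fold change -1.38, SE 0.08, adjusted p = 1.56e-10, edgeR). Ndufc2 was at 270.4, 268, 249 and 281 against 125, 132, 142 and 149 CPM (0.97, SE 0.09, adjusted p = 1.46e-07, edgeR). Neither gene overlapped between the subsets. Among those called higher in double mutants and not in controls were Cox6b2 (1.90, SE 0.41), Atp5g3 (0.39), Atp5pb (0.36), Cox4i1 (0.36), Uqcrfs1 (0.35) and Ndufa12 (0.32), but the test of the difference between genotypes (interaction) passed for 0 of them. Atp5g3 lost its call in 5 of 23 alternatives.

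**Figure D4:**
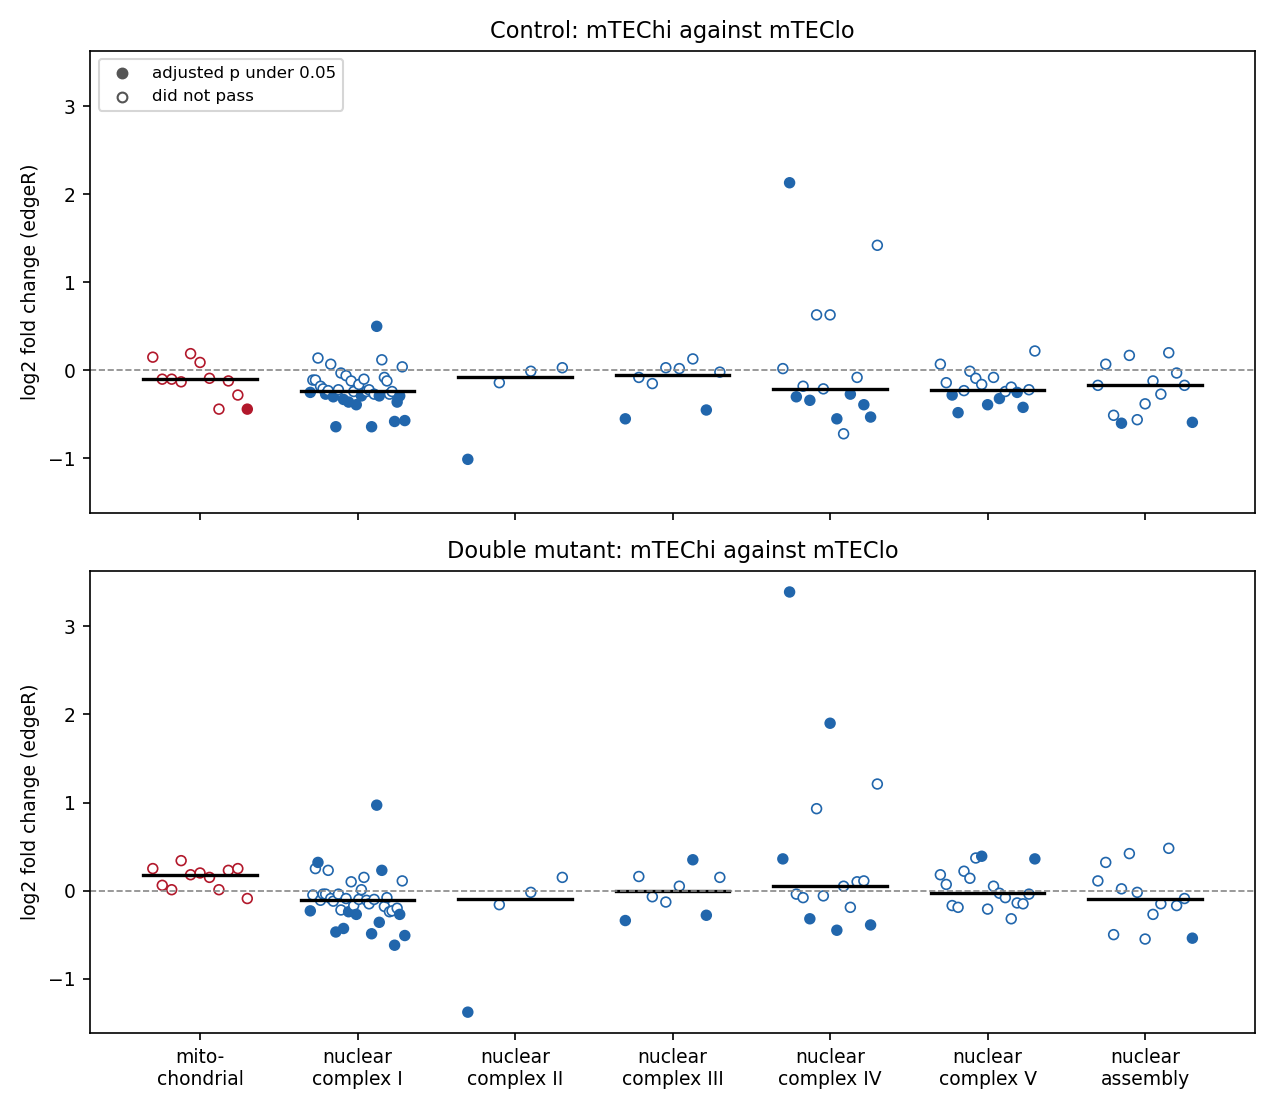
Log2 fold changes of the members between mTEChi and mTEClo (n = 4 libraries each), in controls (upper panel) and double mutants (lower panel). Filled points passed at adjusted p under 0.05 and black lines are medians. Sdha is the lowest point of complex II at -1.01 and -1.38, and Cox4i2 the highest of complex IV at 2.13 and 3.39.

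Cell type markers differed between these subsets as well, where 42.9% of all genes were called in controls and 50.8% in double mutants. All 10 tuft cell genes were lower in control mTEChi (summed level 507 to 746 CPM against 8996 to 12045 CPM), 9 of 12 dissociation stress genes were lower with 0 higher, all 10 proliferation genes were higher (509 to 647 against 77.4 to 204 CPM) and 8 of 10 myeloid genes were higher (1674 to 2218 against 466 to 779 CPM). Enterocyte genes had 6 of 10 higher. In double mutants tuft and proliferation genes moved the same way with 10 of 10 each. Cytosolic ribosomal protein genes differed between the comparisons, with 8 of 80 higher and 6 lower in controls and 71 of 80 higher in double mutants (median log2 fold change 0.76). Thymocyte genes had 7 of 9 tested higher and 1 lower in controls (66.5 to 105.8 against 33.0 to 50.9 CPM), and 4 higher and 1 lower in double mutants (78.8 to 116 against 51.7 to 60.2 CPM), where Rag2 was at 0 in mTEChi. Erythroid genes had 3 of 5 tested higher in controls (30.7 to 44.1 against 8.29 to 32.3 CPM), with Hbb-bt at 0 in mTEClo, and 5 of 5 in double mutants. The part of these in the values of chain genes was not tested.

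Other pathway lists were set beside the 42.9% of all genes called between the control subsets. In the tricarboxylic acid cycle 1 of 16 genes was higher and 2 were lower, in glycolysis 4 of 14 were higher and 4 lower, and in mitochondrial ribosomal proteins 7 of 77 and 11. Of 25 genes for mitochondrial DNA and RNA 4 were higher and 2 lower, with Lrpprc, which stabilises mitochondrial messenger RNA, at 0.88 (SE 0.21) and Ssbp1 at -1.05 (SE 0.11). Acad9, a complex I assembly factor, was higher at 1.07 (SE 0.13), and Coq2, an enzyme of coenzyme Q synthesis, lower at -1.62 (SE 0.28).

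No member passed the edgeR test when Hnf4 genes were removed. In mTEClo double mutants against controls, 0 of 94 nuclear and 0 of 11 mitochondrial members were called, where 0.74% of 18775 genes were called, and the medians were -0.02 and 0.00 against 0.00 over all genes. An unadjusted p under 0.05 was found for 3 members, all nuclear, beside 2315 of the 18775 genes tested. DESeq2 called 1 member, Sdha.

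Sdha was at 1069, 1068, 1058 and 1003 CPM in double-mutant and at 910.3, 788, 794 and 876 CPM in control mTEClo, without overlap, and its log2 fold change of 0.32 (SE 0.07) had an adjusted p of 0.0525 by edgeR. Over 21 alternatives this value was 0.29 to 0.35 and the adjusted p 0.00137 to 0.169, and 5 of them passed the threshold. With Hnf4a removed alone Sdha was at 871, 1049 and 999 CPM (0.20, SE 0.08) and with Hnf4g removed alone at 859, 835 and 842 CPM (0.01, SE 0.08), and neither passed. Tuft genes, whose summed level was 13351 to 14187 CPM in double-mutant and 8996 to 12045 CPM in control mTEClo, had 2 of 10 called higher, and 6 of 10 enterocyte genes were lower (52.2 to 75.2 against 217 to 438 CPM).

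With Hnf4a removed alone, 0 of 105 members passed and 0.00533% of all genes were called. The medians were 0.07 for nuclear and 0.16 for mitochondrial members against -0.01 for all genes. An unadjusted p under 0.05 was found for 9 members, beside 1130 of the 18775 genes tested. The smallest p was that of mt-Nd4, at 1114, 994 and 990.2 CPM against 749, 790, 868 and 828 CPM (log2 fold change 0.34, SE 0.09, adjusted p = 0.706, edgeR). With Hnf4g removed alone, 0 members passed and 0.0959% of genes were called, with medians of -0.03 for both kinds of member against 0.00 for all genes. Here 1 member had an unadjusted p under 0.05, beside 1538 of the 18775 genes tested. DESeq2 called 0 members in either comparison.

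In mTEChi double mutants against controls, 0 of 94 nuclear and 0 of 11 mitochondrial members passed, and 0.635% of 18413 genes were called (0.038% higher and 0.597% lower). The medians were 0.13 and 0.23 against 0.01 for all genes. An unadjusted p under 0.05 was found for 13 members, beside 2055 of the 18413 genes tested. The smallest p was that of Ndufaf3, at 87.5, 94.6, 68.9 and 92.1 CPM against 56.2, 58.8, 48.7 and 71.8 CPM (log2 fold change 0.55, SE 0.15, adjusted p = 0.173, edgeR), and it passed by DESeq2 (adjusted p = 0.0463). Ndufa4 was at 498, 562, 429 and 404 against 373, 386, 267 and 363 CPM (0.45, SE 0.14, adjusted p = 0.22, edgeR). Without the filter on low counts mt-Nd5 (adjusted p = 0.0134), Ndufa4 (0.0432) and Ndufaf3 (0.0463) passed as higher, all by edgeR. In these groups 5 of 10 enterocyte genes were lower, 1 tuft gene was higher and 0 of 80 cytosolic ribosomal protein genes passed, with a median of 0.49.

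The effect of the double mutation was also compared between the subsets, as the change in mTEChi minus that in mTEClo. By edgeR 0 of 95 nuclear and 0 of 11 mitochondrial members passed and 0.0597% of genes were called (0.0398% higher and 0.0199% lower). The medians were 0.14 for nuclear and 0.24 for mitochondrial members against 0.05 for all genes. An unadjusted p under 0.05 was found for 13 members, beside 2298 of the 20095 genes tested. Ndufc2 had an interaction of 0.47 (SE 0.13, adjusted p = 0.155, edgeR), from 0.22 in mTEChi and -0.26 in mTEClo. Sdha had an interaction of -0.37 (SE 0.11, adjusted p = 0.164, edgeR), from -0.05 and 0.32. Both passed by DESeq2, with adjusted p = 0.0387 for Ndufc2 and 0.00865 for Sdha.

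Over the 8 groups, levels of most members stayed within a narrow range. For the 84 nuclear members with at least 10 CPM in every group, the ratio of the highest to the lowest group mean was 1.20 to 2.93 (median 1.62), and for the 7 such mitochondrial members 1.27 to 2.29 (median 1.62). Sdha had the widest ratio, 2.93. Every mTEClo library, whatever its genotype, was at 788 CPM or more for Sdha, and every library of the gates and of mTEChi at 515 CPM or less. Among these others, the gate outside entero-hepato (358 ± 42.3, SD, n = 3), double-mutant mTEChi (401 ± 27.9, n = 4), control mTEChi (417 ± 15.5, n = 4) and the entero-hepato gate (470.3 ± 49.7, n = 3) overlapped with their neighbours in this order. The next widest nuclear ratios were 2.29 for Ndufa1 and 2.16 for Ndufa4, both lowest outside the entero-hepato gate, and mt-Co1 at 2.29 was the widest mitochondrial ratio, lowest in the entero-hepato gate.

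**Figure D5:**
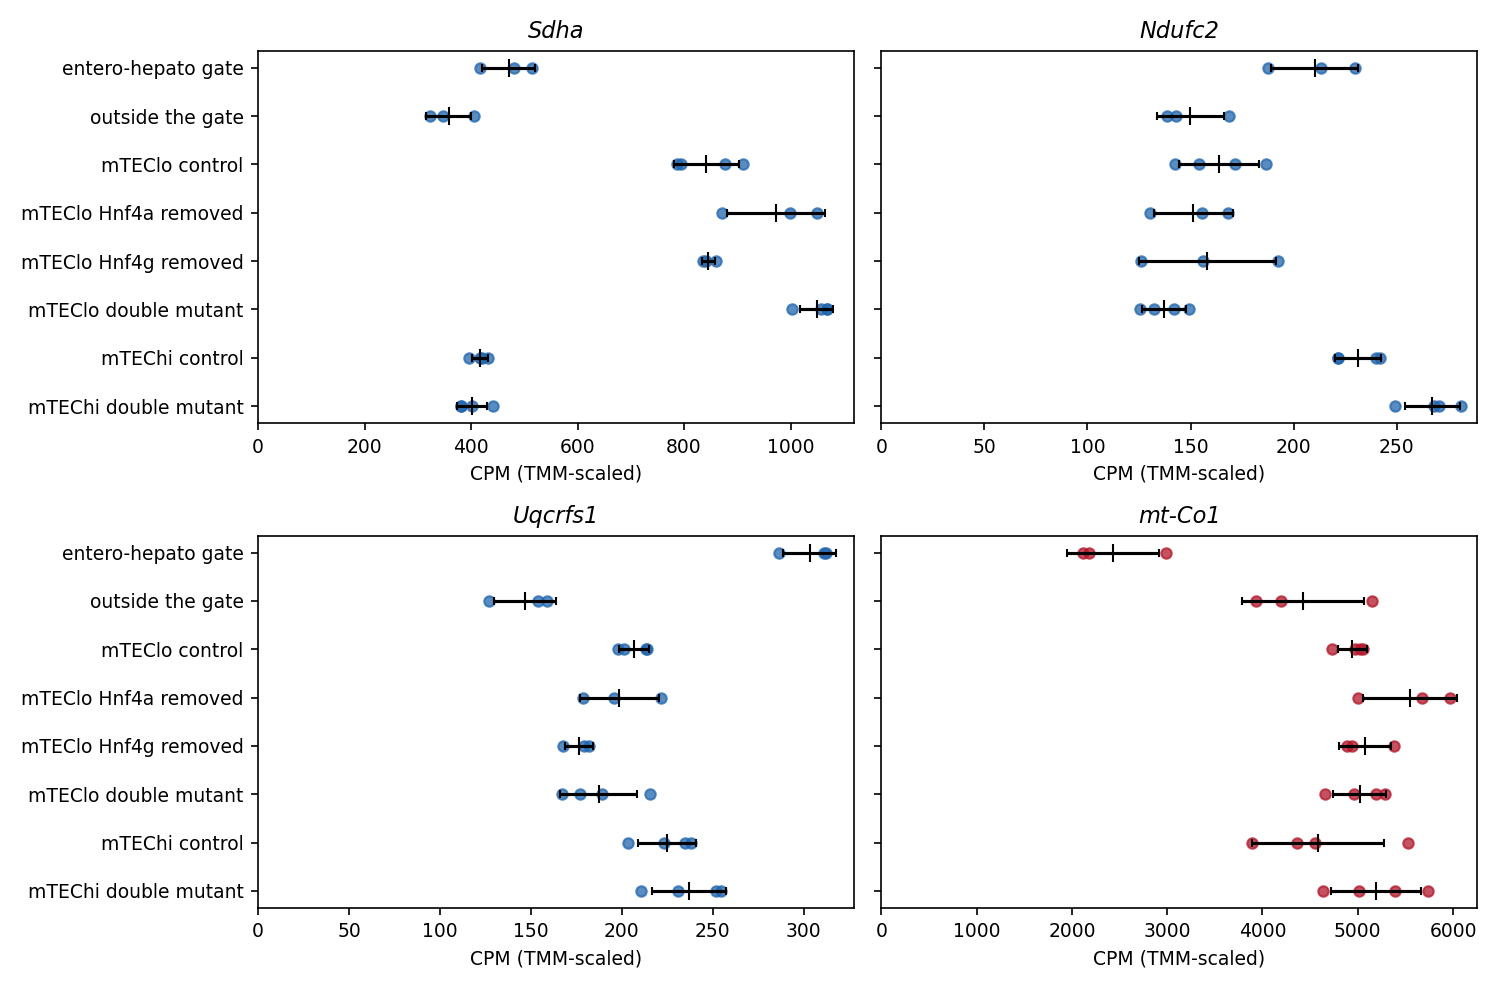
CPM of 4 members in each library (points), with group means (vertical ticks) and SD (bars, n = 3 or 4). Sdha is at 788 CPM or more in all mTEClo libraries and at 515 CPM or less elsewhere, Ndufc2 is highest in double-mutant mTEChi, Uqcrfs1 in the entero-hepato gate, and mt-Co1 is lowest in the entero-hepato gate.

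The 6 members mt-Nd4l, mt-Atp8, Cox6c2, Cox7b2, Ndufa11b and Ndufs6b, had too few counts to be tested in any comparison, with 21 to 119 counts in all. Cox6c2, Ndufa11b and Ndufs6b are annotated as processed pseudogenes, and 56.7%, 18.9% and 37.3% of their windows recur elsewhere, among other places in their parent genes. Among members with higher counts, over 20% of the windows of Atp5g2 (37.2%), Uqcrb (29.7%), Ndufs5 (24.7%), Cox7c (23.4%) and Atp5h (23.3%) recur in annotated copies, so their values are uncertain to that extent.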

How the data were processed

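Bulk RNA-seq of 28 libraries was used as deposited by the authors, as whole-number counts per gene symbol. Per the labels' protocols, 1000 cells were sorted per library, cDNA was primed with oligo(dT), libraries were amplified for 18 cycles with a kit that marks neither strand nor molecules, and read ends were 38 bases. Per the submitters' processing notes the tools were STAR 2.7.3a and featureCounts with mm10, and the authors' annotation and counting settings are unknown here. All columns matched a sample by title.

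Counts were tested with edgeR 4.0.16 (R 4.3.3) quasi-likelihood fits on TMM-scaled libraries, the gates, mTEClo and mTEChi groups fitted separately and the mTEChi against mTEClo comparisons in a single fit of their 4 groups. Genes passed filterByExpr (minimum count 10, minimum total 15), and Benjamini-Hochberg adjusted p under 0.05 over all genes tested is "called". Alternatives were DESeq2 1.42.0, other scalings, no filter, a replicate block, fits on 2 groups and leaving out each library. The edgeR steps were tested on simulated data. Transcript lengths and shared windows came from GENCODE M21.

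Members and gene lists were chosen with earlier results of these data known. Named were mitochondrial members in the gates and wherever called, the 12 called nuclear members of smallest p per direction and comparison, tissue isoforms, the highest and lowest member per complex, and 2 called genes per pathway list. Others, such as the members of smallest p in the mutants, Ndufa6, Sdha and Ndufa4 in the gates, Atp5a1 and Atp5b, were chosen after their values were seen. Total counts limit precision for genes at a few CPM. Some named genes are not reported here.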

Additional observations from a re-analysis of the deposited data

Results flagged for a closer look

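In groups of 4 libraries, 3 values of mitochondrial members lay far from the other 3 libraries of their group. mt-Atp6 was at 7.28 CPM in control mTEClo replicate 2, the lowest of its group. mt-Cytb was at 6489 CPM in control mTEChi replicate 1, the highest of its group, and mt-Nd4l at 0.919 CPM in the same library. Chance alone marks about 1 in 20 groups of values in this way. Each of the 13 mitochondrial members was examined in every group of 4 libraries. So were some nuclear members, Sdha and Ndufc2 among them, and the shares and ratio of counts. With that many groups of values a few are marked by chance.

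Some genes outside the rule had reads. Ndufb1-ps, whose symbol ends in -ps but which is annotated as a bidirectional promoter lncRNA (GRCm38 chromosome 12, 101968090 to 101977068), had 14664 counts over all libraries, 307 to 711 per library. Ndufa12-ps had 1970 counts. The nuclear copies of mitochondrial genes on chromosome 1 had 1061 (Gm28661), 779 (Gm28437), 1828 (Gm10925), 57 (Gm28438) and 254 counts (Gm28439). None of these entered a comparison, and what their reads derive from was not tested.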

How the results depend on the processing

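Of the counts of members called, 294 alternative values stayed within the margin and 20 moved. Among log2 fold changes of single genes and medians of gene sets, 1691 alternative values stayed. For single genes, 74 lost and 19 gained a call and 13 reversed, and 8 medians moved. Plain library totals and upper-quartile scaling were chosen after seeing the data. Between the gates, the mitochondrial members called were 3, against 5 on plain totals, 5 on upper-quartile scaling, and 1 to 4 when a library was left out. The nuclear members called were 55, against 29 on plain totals. In mTEClo double mutants, nuclear members called were 0, against 1 by DESeq2, 1 in the fit on 2 groups and 0 to 1 without a library. In mTEChi double mutants, the mitochondrial count was 0, against 1 without the filter, and the nuclear count 0, against 2 without the filter and 1 by DESeq2. Mitochondrial members called between mTEChi and mTEClo were 1 in controls and 2 on upper-quartile scaling, and in double mutants 0, against 4 on upper-quartile scaling and 0 to 1 without a library (1 without double-mutant mTEChi replicate 3). Nuclear members called for the interaction were 0, against 2 by DESeq2. The share of all genes called under each alternative is not given, so these counts cannot be read as particular to the members. The causes were not tested. Between the gates the log2 fold changes of mt-Nd2 and mt-Nd6 changed sign when a library was left out (-0.26 to 0.09 and -0.25 to 0.09): mt-Nd2 was 0.00 without entero-hepato replicate 2, 0.09 without replicate 3 and 0.04 without replicate 1 outside the gate, and mt-Nd6 was 0.09 without entero-hepato replicate 3 and 0.08 without replicate 1 outside. On plain totals Atp5a1 was -0.14, Atp5b -0.08 and Ndufa4 -0.12 between the gates, where TMM factors gave calls as higher. For Hnf4g removed in mTEClo, Sdha at 0.01 was -0.01 on plain totals and -0.02 to 0.05 without a library.

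The replicate block gave 5 mitochondrial members called between the gates. Deviations of same-numbered libraries from their group means had correlations of -0.0529 to 0.219 (90 pairs, median 0.0103). Differently numbered libraries were not compared in this way, so these values cannot tell whether equal numbers mark a shared mouse or sort.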
